A study of Danio rerio with 18 samples.

Results

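Brains of zebrafish heterozygous for a mutant allele of mfn2 were compared with brains of their wild-type siblings, as gene counts from polyadenylated RNA. The comparison takes every library labelled as heterozygous and every library labelled as wild type, which is 12 of the 18 libraries of the study. The heterozygous group (Het) has the mfn2 genotype +/- for the hu3528 allele and holds 6 libraries. The wild-type group (WT) has the genotype +/+ and holds 6 libraries. The other 6 libraries are homozygous (Hom, -/-) and are used here to estimate the spread between libraries and for values set side by side. All fish were 4 months old and came from matings of 2 heterozygous parents. The 6 families had separate parental pairs, each mated once, and every family gave 1 library per genotype. A library is a pool of 4 whole brains, from 2 females and 2 males, so the replicate is the family pool and not the fish. Siblings were genotyped at 2.5 months and then kept in 1 tank per genotype, so that within a family genotype and tank cannot be told apart. Libraries are named here by labelled genotype and family, such as Het of family 1.

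Mitofusin 2, the product of mfn2, is a GTPase of the mitochondrial outer membrane. Together with mitofusin 1 it joins the outer membranes of neighbouring mitochondria, while the product of opa1 fuses the inner membranes and that of dnm1l divides the organelle. Mitofusin 2 is also found where mitochondria touch the endoplasmic reticulum. In people, mutations of MFN2 cause an axonal form of Charcot-Marie-Tooth neuropathy, which is most often dominant. The comparison asks what a single copy of the hu3528 allele goes with in the adult brain transcriptome.

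Total counts ran from 25195709 to 42897654 over the Het and WT libraries, and 20353 of 32057 genes passed the filter on low counts and were tested. Levels are given as normalized CPM, the count of a gene scaled to a common library size. Neuron markers summed to between 16480 and 17590 normalized CPM in Het and between 15900 and 17790 in WT, and 0 of these 23 tested markers passed the test in Het against WT. A pair of Het libraries stood apart from all other Het and WT libraries. The SD of their log2 deviation from the median of all libraries was 0.739 in Het of family 1 and 0.722 in Het of family 3, against 0.227 to 0.311 in the others, over 13196 genes. They deviated in the same way, with a correlation of 0.83 between the deviations of these 2 libraries over the same genes, given as a description. More than 2-fold deviations numbered 2075 and 2077 genes in them, and 74 to 134 genes in the other Het and WT libraries. The Hom library of family 3 stood apart further, with an SD of 1.12. Results are given with all libraries and, where they rest on these 3, also without them.

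The transcript of mfn2 was lower in Het than in the WT sibling in 5 of 6 families and higher in family 2. In families 1, 3, 4, 5 and 6 the Het libraries held 71.7, 67.8, 69.6, 86.4 and 84.9 normalized CPM of mfn2, against 129.1, 129.8, 119.9, 140.2 and 127.1 in their WT siblings. Every Het value of these families lay below every WT value. Het amounted to 55.6%, 52.3%, 58.1%, 61.6% and 66.8% of the WT sibling, a mean of 58.9% ± 5.61 (SD, n = 5 families), and Hom siblings to 22.7% ± 1.78 (SD, n = 5). Family 2 went the other way: the library labelled Het held 117.1 normalized CPM and the library labelled WT held 75.2, so that mfn2 goes against the labels of this family. The Hom library of family 2, at 27.4 normalized CPM, lay among the other Hom libraries.

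With all libraries as labelled, the log2 fold change of mfn2 was −0.54 ± 0.16 (SE; 95% interval −0.90 to −0.18), which was not past the threshold in edgeR's quasi-likelihood fit over all genes (Benjamini-Hochberg adjusted p = 0.903, unadjusted p = 0.00613, n = 6 per group). Without family 2 the change was −0.77 ± 0.09 and the adjusted p was 0.0889 by the same edgeR test, where 0 of 20456 genes passed (0%). Without the 3 libraries that stood apart, family 2 kept, it was −0.37 (edgeR unadjusted p = 0.0491). Without family 2 and the 3 libraries that stood apart it was −0.68 ± 0.07, and mfn2 then passed (edgeR adjusted p = 0.0117) as 1 of 2 genes of 20790 (0.00962%). Family 2 was left out because of its mfn2 levels. The smaller p-values of mfn2 without it follow in part from that choice and are not independent support. No library was moved to another group. Every direction given below for family 2 rests on libraries labelled Het and WT whose mfn2 levels are reversed.

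**Figure D1:**
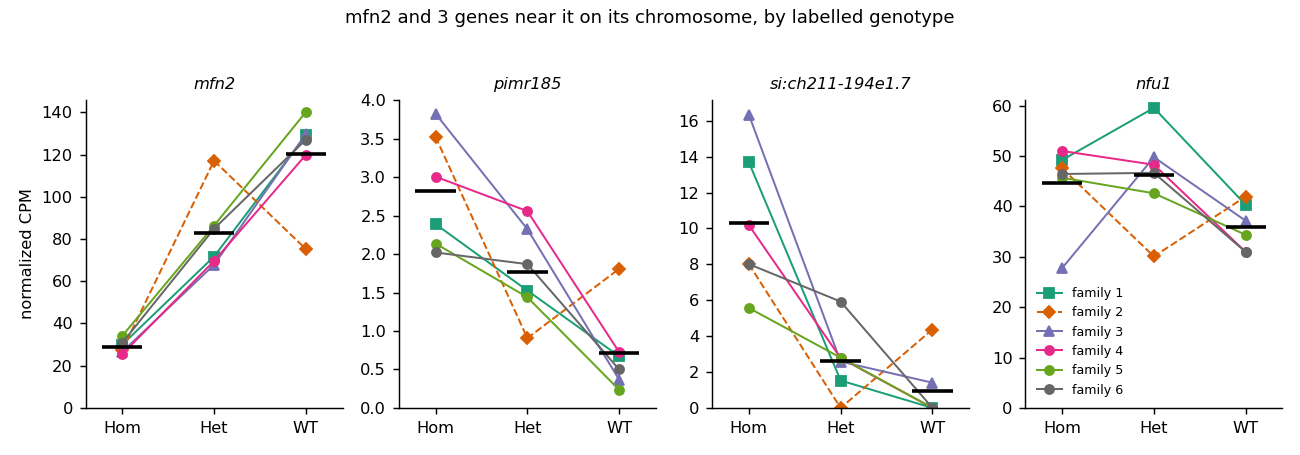
Normalized CPM of mfn2, pimr185, si:ch211-194e1.7 and nfu1 (y axes) in Hom, Het and WT libraries (x axis), with a line per family, family 2 dashed, and a black bar at each mean. In family 2 the library labelled Het held 117.1 CPM of mfn2 and the library labelled WT 75.2, the reverse of the other 5 families. The 3 nearby genes are also reversed there, but not all were chosen without regard to family 2. The gene si:ch211-194e1.7 was named through fits without family 2, and nfu1 after its values were seen. The neighbour ddx51, not shown, was not reversed in family 2.

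Across the transcriptome, no gene passed the test for Het against WT. Of the 20353 genes tested, 0 (0%) had an adjusted p under 0.05 by edgeR, and the lowest adjusted p was 0.296, for si:ch211-209m20.7. At an unadjusted p under 0.05 there were 524 genes (2.57%), of which 257 (1.26%) were higher and 267 (1.31%) lower in Het. DESeq2 called 14 genes of 24970 tested, with 880 at an unadjusted p under 0.05, and limma voom with library weights called 0, with 821. Het was higher in 6 of 6 families in 331 genes (1.63%) and lower in 6 of 6 in 264 (1.3%). Signs of 6 families allow no two-sided p below 0.03125 by exact permutation, so 6 of 6 is not rare among 20353 genes. All 6 Het values exceeded all 6 WT values in 7 genes (0.0344%) and lay below them in 9 (0.0442%). The median log2 fold change over all genes tested was 0.01. The gene si:ch211-209m20.7, named by a clone and with no role given here, had 0.65, 0.32, 5.23, 0.47, 0.32 and 0.52 normalized CPM in the Het libraries of families 1 to 6, against 0.16, 0.05, 0.40, 0.07, 0.12 and 0.15 in WT. Het was the higher in 6 of 6 families, and the highest value was in Het of family 3, which stood apart. The log2 fold change was 2.50 ± 0.37, and 2.00 without the 3 libraries. DESeq2 called si:ch211-209m20.7 as one of its 14 genes. Its raw counts were 17, 8, 144, 13, 8 and 13 in Het, against 4, 2, 12, 2, 3 and 4 in WT.

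The intervals say how large a change these libraries could have missed. The median SE of a log2 fold change was 0.195 with all libraries, and the 95% interval lay within ±1 on the log2 scale for 76.0% of genes. Without the 3 libraries that stood apart, the median SE was 0.129 and 85.0% of genes had an interval within ±1, while 0 of 20586 genes passed (0%) and 582 had an unadjusted p under 0.05 (2.83%), 308 of them higher in Het (1.5%). A p above the threshold therefore does not show that a gene was equal in the 2 genotypes.

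Among higher genes with a symbol that is no clone name, the smallest p was that of fos, an activity-induced transcription factor of the AP-1 family. Its Het values had a lowest, median and highest of 25.1, 53.7 and 61.4 normalized CPM, against 8.69, 25.5 and 44.2 in WT. Het was above its WT sibling in 6 of 6 families although the ranges of the groups overlapped. The log2 fold change was 1.02 ± 0.25 (SE, 95% interval 0.48 to 1.56), with an edgeR adjusted p of 0.903, the value shared by all 20 genes named here as leading. The next was ppfibp2b, which encodes a liprin-β scaffold protein, at 21.6, 22.6 and 26.9 normalized CPM in Het and 17.1, 18.7 and 21.5 in WT. Its 6 Het values all lay above the 6 WT values, as was so in 7 of the 20353 genes tested (0.0344%). The log2 fold change was 0.32 ± 0.08, and it kept the size without the 3 libraries (0.34).

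The other higher genes differed less or were of lower count. The gene cebpb, a transcription factor of inflammation and of the integrated stress response, had 17.7, 22.7 and 29.9 normalized CPM in Het and 14.7, 18.95 and 21.4 in WT. That was a log2 fold change of 0.36 ± 0.10, in the same direction in 6 of 6 families. The Toll-like receptor gene tlr8b had 1.03, 1.195 and 2.37 normalized CPM in Het and 0.50, 0.98 and 1.30 in WT, also higher in 6 of 6. The cytokine gene il16 had 9.64, 10.5 and 12.2 normalized CPM in Het and 7.93, 8.47 and 10.3 in WT, higher in 6 of 6 families with a log2 fold change of 0.29 ± 0.08. It was 0.33 without the 3 libraries. The antiviral helicase gene mov10b.1 had log2 fold changes of 0.80 ± 0.22 with all libraries and 0.59 without the 3, and the haematopoietic repressor gene gfi1 had 1.30 ± 0.37 and 0.97. The remaining higher genes were enpp2, which encodes the lysophospholipase autotaxin (0.88 ± 0.26), acte1, an actin gene (1.06 ± 0.28), and pimr185, a neighbour of mfn2 described below (1.44 ± 0.39). All 10 were still higher without the 3 libraries and without family 2. Without both family 2 and the 3 libraries, mov10b.1 stood at 0.35 ± 0.26. The others then ran from 0.30 (ppfibp2b) to 1.94 (pimr185).

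Among the lower genes of smallest p the largest difference was in pyy, which encodes the gut and brain peptide YY. Its Het values were 0.34, 0.56 and 1.22 normalized CPM (lowest, median and highest), against 0.85, 3.76 and 9.60 in WT. Het was the lower in 6 of 6 families, and of the WT libraries only that of family 6 lay below the highest Het value. The log2 fold change was −2.74 ± 0.62 (95% interval −4.09 to −1.39), and −2.18 without the 3 libraries. With edgeR it did not pass (adjusted p = 0.903), whereas DESeq2 called it at an adjusted p of 0.00164. Hom libraries held 1.94, 4.82 and 9.43 normalized CPM of pyy, a range that overlapped with that of WT.

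The remaining lower genes were mostly of low count. The gene msnb, a moesin that links actin to the membrane, had 0.08, 0.23 and 0.47 normalized CPM in Het and 0.44, 0.75 and 1.27 in WT, lower in 6 of 6 families at −1.61 ± 0.36. Transcripts of mst1 (macrophage-stimulating protein), trpc6 (a cation channel; ENSDARG00000067730) and dpyd (dihydropyrimidine dehydrogenase; ENSDARG00000010267) were lower in 6 of 6 families, at log2 fold changes of −1.06 ± 0.25, −1.25 ± 0.36 and −0.54 ± 0.16. The better measured mtmr11, of the myotubularin phosphatase family, had 41.9, 55.1 and 84.5 normalized CPM in Het and 63.1, 70.8 and 88.9 in WT. It was lower in 6 of 6 families by a log2 fold change of −0.38 ± 0.12, which was −0.25 without the 3 libraries, and the ranges overlapped. The bicarbonate transporter gene slc4a7 (−0.52 ± 0.16, and −0.34 without the 3 libraries) was lower in 6 of 6, and dcst2 (−1.15 ± 0.28) and the monocarboxylate transporter gene slc16a5 (ENSDARG00000102668; −1.06 ± 0.32) in 5 of 6. The tenth gene is mfn2. All 10 were also lower without the 3 libraries and without family 2. Without both family 2 and the 3 libraries the values were −0.26 for slc4a7, −0.25 for mtmr11, −0.83 for trpc6 and −0.68 for slc16a5.

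**Figure D2:**
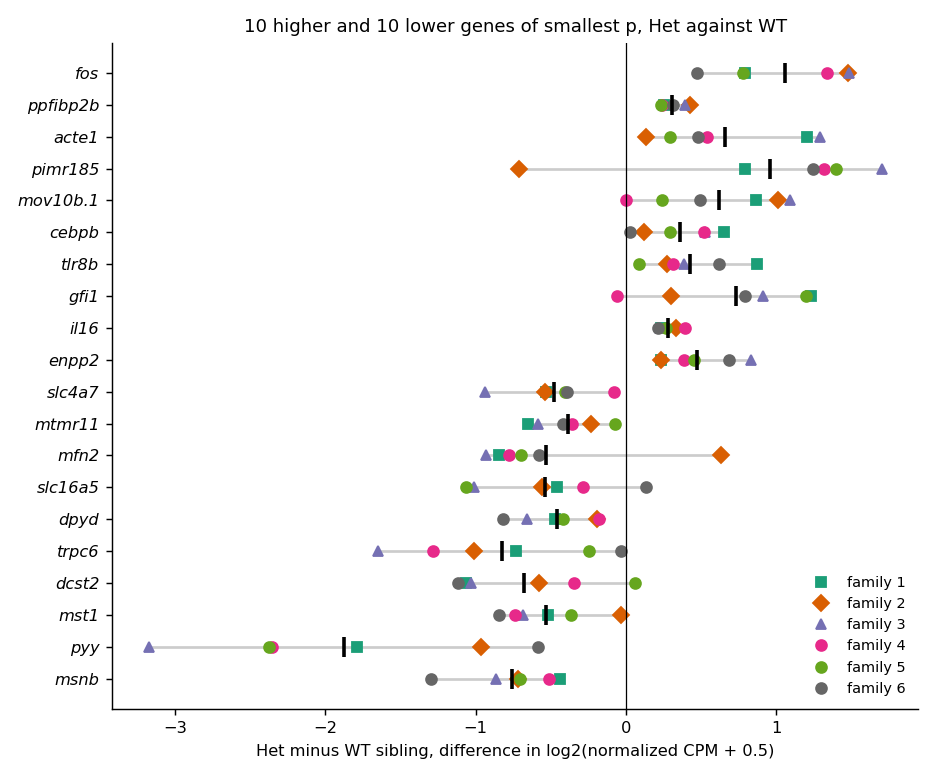
Difference of log2(normalized CPM + 0.5) between Het and its WT sibling (x axis) for the 10 higher and 10 lower genes of smallest p (y axis), with 1 symbol per family and a black tick at the mean over families. For fos all 6 families lie above 0 and for pyy all 6 below, while family 2 (diamonds) is the exception for mfn2 and pimr185.

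Immediate early genes are switched on within minutes by neuronal activity, growth factors or stress, without new protein synthesis. Of 28 tested members, 0 passed the test, 7 were higher in Het at an unadjusted p under 0.05 (1.26% of all genes tested) and 0 were lower (1.31% of all genes). Het was higher in 6 of 6 families in 7 members, against 1.63% of all genes: fos, ier2a, btg2, ier5, dusp1, egr4 and ccn1. The median log2 fold change was 0.13, against 0.01 for all genes tested, and 0.15 without the 3 libraries. Estimates were positive in 20 members and negative in 8.

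The other members at that unadjusted p were smaller changes than fos. The transcriptional regulator genes ier2a and ier2b had log2 fold changes of 0.78 ± 0.26 and 0.47 ± 0.15 (SE), and ier5, another early response regulator, 0.26 ± 0.09. For ier2a the lowest, median and highest values were 13.9, 24.1 and 32.0 normalized CPM in Het, against 6.34, 14.1 and 22.2 in WT. Het was above the WT sibling in every family, but the ranges of the groups overlapped. The antiproliferative gene btg2 had a log2 fold change of 0.54 ± 0.19, with 25.7, 42.1 and 58.1 normalized CPM in Het (lowest, median and highest) and 16.3, 26.5 and 41.7 in WT. The phosphatase gene dusp1, which switches off MAP kinases, had 0.52 ± 0.19. The zinc finger gene egr4 had 0.78 ± 0.30, with 202.7, 158.1, 119.2, 217.5, 178.8 and 149 normalized CPM in the Het libraries of families 1 to 6 and 166.9, 41.8, 51.5, 123.5, 120 and 118 in WT.

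Other members had estimates closer to 0. The widely used marker egr1 had a log2 fold change of 0.11 ± 0.38, with 242.4 to 596.7 normalized CPM in Het and 287.6 to 605.7 in WT. For fosb the value was 0.01 ± 0.33, for egr3 −0.06 ± 0.21 and for the neurotrophin gene bdnf −0.04 ± 0.13. Without the 3 libraries the members at an unadjusted p under 0.05 were 5, namely fos, btg2, ier5, egr2 and jun. The summed level of the list was 1147 to 1908 normalized CPM in Het and 875 to 1581 in WT. In the library labelled Het of family 2 fos stood at 25.1 normalized CPM and in that labelled WT at 8.69, so that fos did not reverse there as mfn2 did. In Hom against WT, which shares the WT libraries, 10 of the 28 members passed as higher (1.49% of all genes tested did), fos among them (log2 fold change 1.60 ± 0.26).

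**Figure D3:**
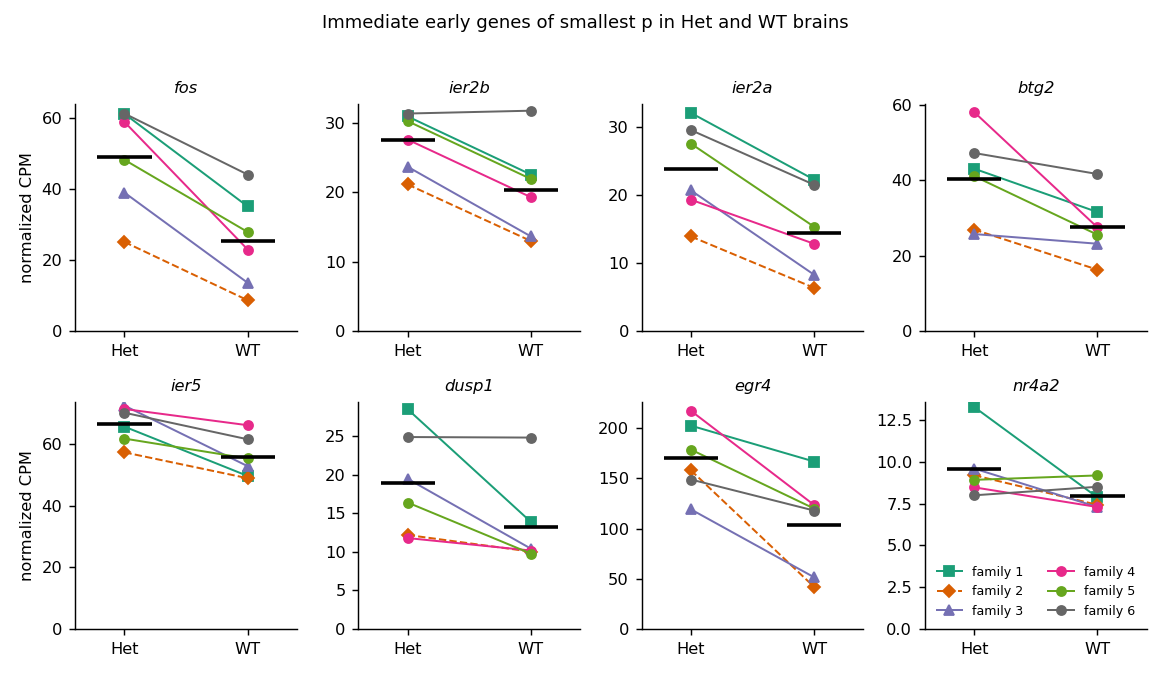
Normalized CPM (y axes, from 0) of the 8 immediate early genes of smallest p in Het and WT libraries (x axis), with a line joining the siblings of each family and a black bar at each mean. The line runs down from Het to WT in all 6 families for fos, ier2a, btg2, ier5, dusp1 and egr4.

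Among genes lying near mfn2 on its chromosome, the share at an unadjusted p under 0.05 was above that elsewhere, and more so without the family whose mfn2 levels are reversed. Neighbours were taken from the order of 606 tested genes on that chromosome, matched by name to the GRCz12tu assembly. Among the 100 tested genes within 50 on either side, 5% had an unadjusted p under 0.05 with all libraries, 14% without family 2 and 22% without family 2 and the 3 libraries. Over all genes tested these shares were 2.57%, 2.73% and 3.07%. They were 2.55%, 2.63% and 2.71% on other chromosomes and 2.38%, 3.76% and 4.75% on the rest of the same chromosome. These shares are descriptions with no test, since neighbouring genes are inherited together and are not independent, and the window was chosen after the values were seen. Family 2 was left out because of its mfn2 levels, a choice that bears on genes inherited with mfn2. The larger shares without family 2 follow in part from that choice and are not independent support. The same holds for the values of single neighbours without family 2 given below.

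The clearest neighbour was pimr185, of the Pim kinase-related family, the second tested gene from mfn2. The Het values were 1.53, 0.91, 2.33, 2.56, 1.44 and 1.87 normalized CPM in families 1 to 6, against 0.67, 1.81, 0.37, 0.73, 0.24 and 0.50 in WT. Every family other than family 2 had more in Het, and family 2 had more in the library labelled WT. Without family 2 the log2 fold change was 1.97 (edgeR unadjusted p = 1.67e-05). The gene si:ch211-194e1.7, named by a clone and with no role given here, held 1.53, 0, 2.58, 2.78, 2.80 and 5.93 normalized CPM in Het and 0, 4.37, 1.41, 0, 0 and 0 in WT. Of the Het libraries only that labelled so in family 2 had none, and its WT-labelled sibling had the most in WT. This gene passed edgeR's test without family 2 and the 3 libraries (adjusted p = 0.0117) and without families 1, 2 and 3 (adjusted p = 0.0352). No fold is given because most WT libraries were at 0. Hom libraries held 5.57 to 16.4 normalized CPM.

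Further neighbours were chosen after their values were seen. The iron-sulfur cluster scaffold gene nfu1, whose product acts in mitochondria, had 59.6, 30.1, 49.8, 48.3, 42.6 and 46.7 normalized CPM in Het and 40.3, 42.0, 37.1, 31.0, 34.4 and 30.9 in WT. Het was the higher in every family but family 2, at a log2 fold change of 0.51 ± 0.15 without that family (edgeR unadjusted p = 0.00718). The peroxisomal ubiquitin ligase gene pex10 had log2 fold changes of 0.54 with all libraries and 0.70 without family 2. The DNA repair glycosylase gene ogg1 had 0.60 and 0.93, and angptl7, of the angiopoietin-like family, 1.00 and 1.53. Lower in Het was the RNA helicase gene ddx51, at −0.39 and −0.46. It was not reversed in family 2 (10.4 normalized CPM in Het, 10.7 in WT). Its exception was family 3 (12.2 in Het, 8.87 in WT), whose Het library stood apart. Apart from mfn2 and si:ch211-194e1.7, no neighbour passed edgeR's test for Het against WT in any of these 3 sets of libraries.

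**Figure D4:**
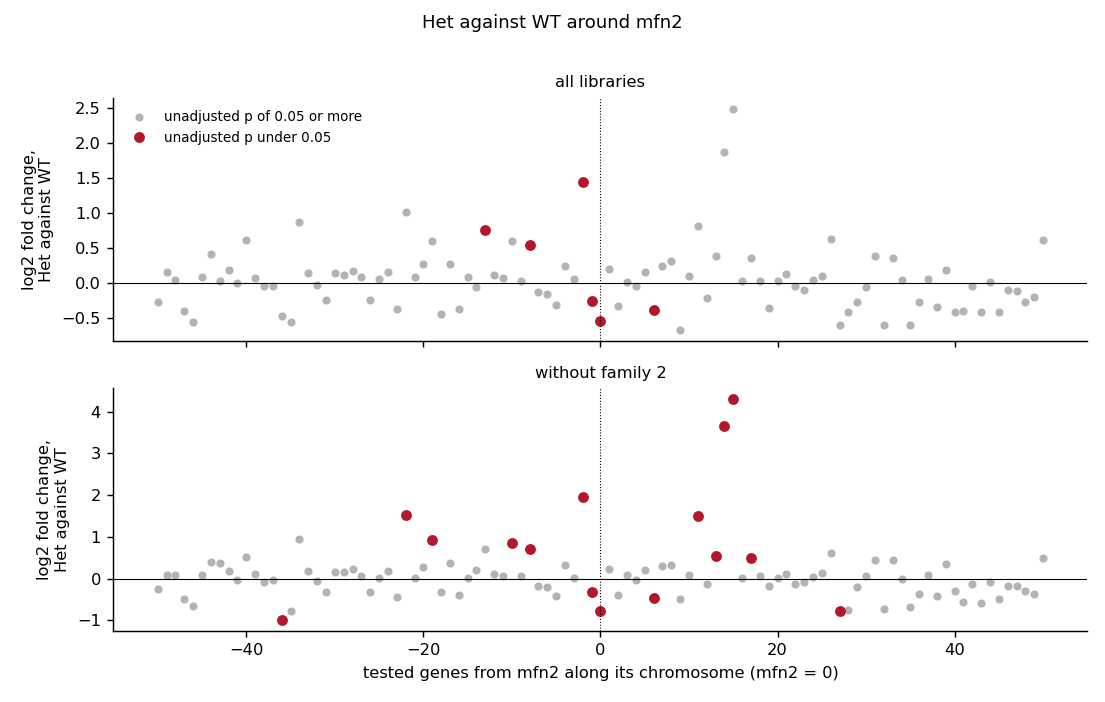
Log2 fold change of Het against WT (y axis) for the 50 tested genes on either side of mfn2 (x axis, count of tested genes from mfn2 at 0), with all libraries above and without family 2 below. Red points, those at an unadjusted p under 0.05, make up 5% of the neighbours above and 14% below. Family 2 was left out because of its mfn2 levels.

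Genes that passed the test in homozygous brains had smaller estimates in Het brains, given here as a description. They were chosen by their Hom values, so smaller estimates in Het follow in part from that choice. The comparisons of Hom and of Het share the WT libraries, so the values are set side by side and no overlap between them is taken as a result. In Hom against WT 390 genes passed (1.92%), of which 304 were higher (1.49%) and 86 lower (0.423%) by edgeR's adjusted p. The 304 had a median log2 fold change of 1.14 in Hom against WT and 0.17 in Het against WT, or 0.09 in Het without the 3 libraries. The 86 had medians of −0.89 in Hom and 0.07 in Het, or −0.01 in Het without the 3 libraries.

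Stress and inflammation genes illustrate the first set. The stress-induced transcription factor gene atf3 averaged 27.9 normalized CPM in Hom, 5.32 ± 1.01 in Het and 4.76 ± 0.68 in WT (SD, n = 6 each), a log2 fold change in Het of 0.15 with a 95% interval of −0.19 to 0.49. The pseudokinase gene trib3 averaged 37.3 in Hom, 13.3 ± 3.15 in Het and 11.9 ± 1.88 in WT, and the glucose transporter gene slc2a1 (ENSDARG00000007412) averaged 25.9 in Hom, 7.10 ± 0.96 in Het and 7.35 ± 0.79 in WT. The cytokine signalling inhibitor gene socs3 (ENSDARG00000025428) averaged 48.5 in Hom, 12.4 ± 7.48 in Het and 8.27 ± 7.27 in WT. Het was above WT in 6 of 6 families with a log2 fold change of 0.67 ± 0.26, and it was 0.47 without the 3 libraries (edgeR unadjusted p = 0.0241 and 0.141). The ubiquitin-like interferon target isg15 averaged 33.7 in Hom, 3.496 ± 2.43 in Het and 2.13 ± 0.97 in WT.

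Structural and sterol genes illustrate the second set. The neurofilament light chain gene nefla averaged 173 normalized CPM in Hom, 646 ± 155 in Het and 603 ± 97.3 in WT, and the Het interval ran from −0.19 to 0.36 on the log2 scale. For the medium chain gene nefmb the means were 37.4 in Hom, 246 ± 74.5 in Het and 226 ± 65.9 in WT. The sterol synthesis genes lss, cyp51a1 and sqle (ENSDARG00000079946) had log2 fold changes between −0.05 and 0.15 in Het against WT, beside −1.53 to −2.21 in Hom against WT. The elongation factor gene eef1a2, expressed in neurons and muscle, averaged 70.5 in Hom, 157 ± 14.8 in Het and 145 ± 16.3 in WT.

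**Figure D5:**
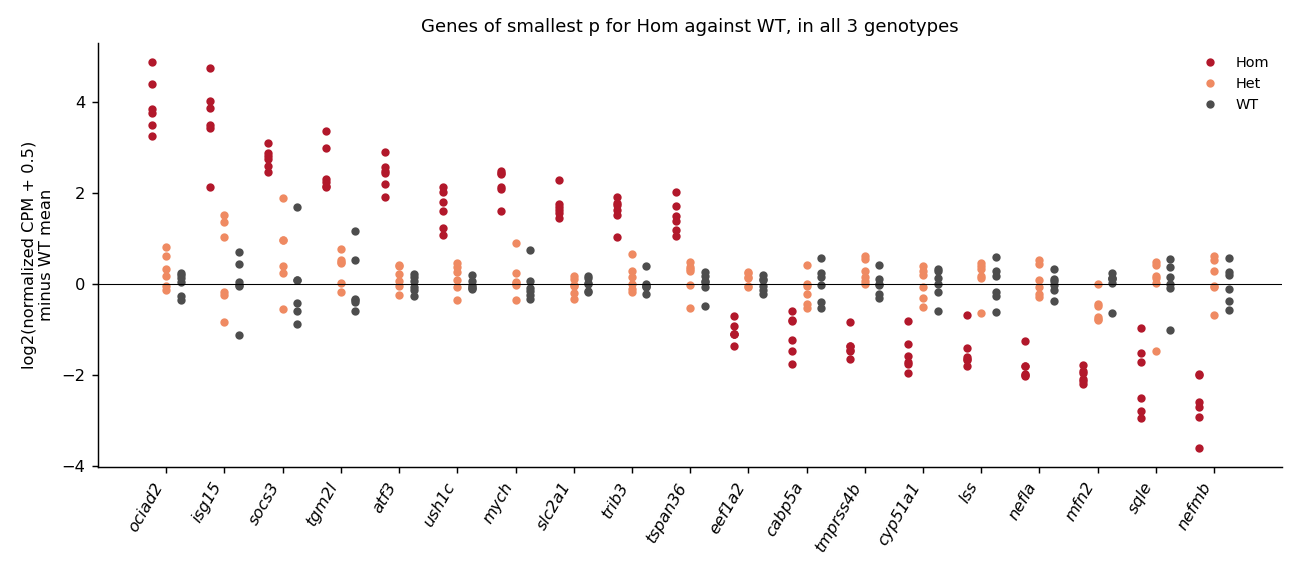
Log2(normalized CPM + 0.5) minus the WT mean (y axis) for the 10 higher and 9 of the 10 lower genes of smallest p in Hom against WT (x axis), with 6 libraries each of Hom, Het and WT. The genes were chosen by the Hom values. For atf3 the means were 27.9 CPM in Hom, 5.32 in Het and 4.76 in WT.

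In the machinery of mitochondrial fusion and fission, 0 of 30 tested members passed and the median log2 fold change was 0.02. The other mitofusin gene mfn1b held 37.8, 47.3 and 58.8 normalized CPM in Het (lowest, median and highest) and 47.8, 52.2 and 55.4 in WT, at −0.11 ± 0.10 (95% interval −0.32 to 0.11). The scarce mfn1 averaged 0.89 ± 0.82 in Het and 1.77 ± 1.46 in WT, with Het lower in 5 of 6 families (edgeR unadjusted p = 0.0478, and 0.112 without the 3 libraries). The inner membrane fusion gene opa1 had 131.3, 143.2 and 173.4 normalized CPM in Het and 130.3, 142 and 156.6 in WT (0.05 ± 0.15), and the fission dynamin gene dnm1l 131.9, 150 and 159.8 in Het and 139.7, 145.4 and 154.3 in WT (0.02 ± 0.09). The fission receptor genes fis1, mffa, mffb, mief1 and mief2 had log2 fold changes between −0.14 and 0.16. The value was 0.07 ± 0.11 for gdap1, another gene of hereditary neuropathy in people, and −0.16 ± 0.24 for the inner membrane protease gene oma1.

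The 13 protein-coding genes of the mitochondrial genome took 10.3% ± 1.25 of counts in Het and 9.53% ± 0.62 in WT (SD, n = 6 each). In families 1 to 6 the shares were 11.8%, 9.59%, 11.9%, 9.54%, 8.92% and 10.2% in Het, against 10.5%, 9.18%, 8.68%, 9.96%, 9.37% and 9.50% in WT. Het was the higher in 4 of 6 families, by a mean of 0.11 on the log2 scale. Exact permutation of the signs of the 6 within-family differences gave a two-sided p of 0.219, where the smallest possible is 0.03125. The largest differences were in families 1 and 3, whose Het libraries stood apart, and over families 4, 5 and 6 the mean was −0.01. Per gene, 13 of 13 estimates were positive with a median of 0.09, and the median was −0.05 without the 3 libraries. In Hom libraries the share was 1.93% to 6.19%.

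For nuclear genes of respiration, estimates were positive in 38 of 40 complex I genes, in 25 of 26 complex III and IV genes and in 17 of 18 ATP synthase genes, with median log2 fold changes of 0.11, 0.12 and 0.10. Without the 3 libraries these medians were −0.01, −0.01 and −0.03. For cytosolic ribosomal protein genes 77 of 77 estimates were positive with a median of 0.18, which was −0.01 without the 3 libraries, and their summed level was 37880 and 33050 normalized CPM in the Het libraries of families 1 and 3, against 25070 to 29030 in the other Het libraries and 23830 to 34140 in WT. Genes of the TCA cycle had a median of 0.03 over 29 and mitochondrial chaperones and proteases 0.04 over 20. No member of any of these lists passed the test. At an unadjusted p under 0.05 there was 1 among the complex III and IV genes, cox6a1 (ENSDARG00000054588), at 0.74 ± 0.31 and 0.14 without the 3 libraries. Of all genes tested, 1.26% were higher at that p.

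Lists of stress and signalling pathways also held no gene past the test. The integrated stress response, through which mitochondrial faults reach the nucleus in mammals, had a median log2 fold change of 0.08 over 38 genes, with cebpb as the 1 member at an unadjusted p under 0.05. Its median was 0.02 without the 3 libraries, with 1 member higher and 2 lower at that unadjusted p. Of all genes tested, 1.26% were higher and 1.31% lower at that p with all libraries. Without the 3 libraries these shares were 1.5% and 1.33%. The regulator gene atf4a had 140.3, 160.6 and 185.6 normalized CPM in Het (lowest, median and highest) and 134.9, 154.8 and 161.8 in WT, at 0.08 ± 0.10. The stress gene ddit3, which encodes CHOP, had 54.4, 58.1 and 61.9 in Het and 41.1, 55.1 and 59.9 in WT, at 0.16 ± 0.11. Targets of p53 had a median of 0.14 over 19 genes, 0.01 without the 3 libraries, with btg2 and the p53 ligase gene mdm2 (0.21 ± 0.09, higher in 6 of 6 families) at that unadjusted p. Without the 3 libraries btg2 was still at that unadjusted p and mdm2 was not. Heat shock chaperones had a median of 0.11 over 23 genes and −0.02 without the 3 libraries, cholesterol synthesis and uptake 0.02 over 28, the circadian clock −0.02 over 37 and neurofilaments 0.04 over 7. In the cholesterol list sc5d, which encodes a sterol desaturase, was higher in 6 of 6 families (0.33 ± 0.15).

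Among interferon response genes none passed edgeR's test. Estimates were positive in 25 of 28 tested genes with a median of 0.26, which was 0.07 without the 3 libraries, and 5 genes were higher in 6 of 6 families (1.63% of all genes tested were). The dynamin-like antiviral gene mxc had 9.70, 0.99, 5.53, 1.48, 1.04 and 1.79 normalized CPM in the Het libraries of families 1 to 6, against 4.07, 0.94, 1.00, 0.83, 0.39 and 0.69 in WT. The highest values were in the Het libraries of families 1 and 3, and the log2 fold change of 1.25 ± 0.51 was 0.42 without the 3 libraries. For isg15, ifi35 and irf7 the values with all libraries were 0.60 ± 0.26, 0.50 ± 0.22 and 0.33 ± 0.17. The list summed to 644.6 and 474.9 normalized CPM in Het of families 1 and 3. It summed to 362.8 to 417.2 in the other Het libraries and 368.7 to 422.5 in WT. At an unadjusted p under 0.05 by edgeR, 3 members were higher with all libraries (1.26% of all genes were). Without the 3 libraries 1 was higher and 1 lower (1.5% and 1.33% of all genes were). Microglia and macrophage markers had a median of 0.14 over 31 genes and 0.02 without the 3 libraries, and lymphocyte markers 0.22 over 11 and −0.04. In a bulk measurement of this kind, fewer cells of a type and less RNA per cell cannot be told apart.

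No marker of a brain cell type passed the test. The median log2 fold change was −0.09 over 23 neuron markers, −0.13 over 17 GABAergic neuron markers, 0.02 over 17 radial glia and astroglia markers, 0.09 over 18 oligodendrocyte markers, 0.06 over 30 endothelial and mural markers, 0.07 over 24 cerebellar markers and −0.09 over 24 hypothalamic neuropeptide markers. Without the 3 libraries the 2 neuronal lists stood at −0.01 and −0.04. Cilia and ependymal markers had a median of −0.02 over 22, meningeal fibroblast markers 0.07 over 21, pituitary hormone markers −0.18 over 9 and erythrocyte markers 0.19 over 9. The meningeal median was −0.03 without the 3 libraries, the pituitary −0.30 and the erythrocyte −0.09, and the erythrocyte sum was 4637 normalized CPM in Het of family 1, against 1219 to 2288 in the other Het libraries and 1193 to 3193 in WT. The glial intermediate filament gene gfap had a log2 fold change of 0.12 ± 0.24. The myelin gene mbpa had 9688, 14810 and 20770 normalized CPM in Het (lowest, median and highest) and 8226, 11840 and 14140 in WT, at 0.34 ± 0.28. Among single members, the interneuron transcription factor gene lhx6 (ENSDARG00000006896) was lower in 5 of 6 families (−0.62 ± 0.29), and the collagen gene col12a1 (ENSDARG00000078322) was lower in 6 of 6 (−0.84 ± 0.38, and −0.56 without the 3 libraries). Of the GABAergic markers 1 was lower at an unadjusted p under 0.05 by edgeR with all libraries and 0 without the 3 (1.31% and 1.33% of all genes were).

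Photoreceptor and pineal markers were low in all Het libraries and high in some WT libraries. Their summed level was 42.0, 32.3, 53.2, 32.8, 35.9 and 35.5 normalized CPM in the Het libraries of families 1 to 6, against 44.3, 138, 226.8, 33.6, 39.7 and 75.9 in WT. WT of families 2, 3 and 6 lay above every Het library, and the other WT libraries lay among them. Only 19 of the 31 matched genes passed the filter on low counts. That filter took libraries of any genotype, so scarce members could pass through the WT and Hom libraries where they were high. Of these 19 genes, 18 had negative estimates with a median of −1.73, or −1.50 without the 3 libraries and −1.16 without family 2. These directions may follow in part from the filter, which was not tested, and are not independent support. The rod opsin gene rho (ENSDARG00000111860) had 2.84, 4.42 and 7.09 normalized CPM in Het and 3.57, 9.19 and 68.0 in WT, lower in 6 of 6 families at −1.89 ± 0.70. The melatonin synthesis gene aanat2 had 0.18 to 0.52 normalized CPM in Het and 0.20 to 5.09 in WT. In Hom the summed level was 29.4 to 147. The part of retinal or pineal tissue in these levels was not tested.

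Markers of skeletal muscle and of skin and gill were highest in the Het library of family 3. In Het of family 1 both sums exceeded those of the other Het and WT libraries by less, and its skin and gill sum lay within the range of Hom. Skeletal muscle markers summed to 374 and 2103 normalized CPM in the Het libraries of families 1 and 3, to 125 to 227 in the other 4 Het libraries and to 97.5 to 279 in WT. The median log2 fold change over 20 of these markers was 0.99 with all libraries and 0.16 without the 3. The muscle calcium pump gene atp2a1 had 0.28, 2.18 and 60.9 normalized CPM in Het (lowest, median and highest) and 0.08, 0.27 and 2.91 in WT. Skin and gill epithelium markers summed to 1110 and 4350 in those 2 Het libraries and to 326 to 1005 in the other 4. They summed to 391 to 1005 in WT and to 644 to 1259 in Hom. Their median log2 fold change over 21 genes was 0.35 with all libraries and 0.28 without the 3. Lens markers summed to 2.81 to 6.18 in Het and 2.51 to 12.6 in WT (median 0.05 over 3 tested genes), and oocyte and egg markers to 5.00 to 9.34 in Het and 5.18 to 7.43 in WT (median 0.17 over 4). Their part in the differences of other genes was not tested, beyond the values without the 3 libraries.

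Yolk protein precursor genes, named after their values were seen, varied between pools in both genotypes. The vitellogenin gene vtg1 had 12.7, 8.33, 1.02, 61.7, 0.32 and 17.7 normalized CPM in the Het libraries of families 1 to 6, against 2.02, 0.21, 19.5, 0.40, 0.12 and 0.35 in WT. Het was above its WT sibling in 5 of 6 families and WT of family 3 lay above 5 of the Het libraries. The log2 fold change of 3.39 ± 1.53 did not pass (edgeR adjusted p = 0.903), and it was 4.98 without the 3 libraries. Vitellogenins are made mainly in the liver of females, and each pool held 2 females.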

How the data were processed

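The values are whole-number gene counts from 18 pools of zebrafish brain. Per the labels' protocols the RNA was polyadenylated and prepared with a NEBNext Ultra kit. The authors deposited these raw counts, not normalized, in 1 table. The submitters' processing notes name STAR 2.7.0a, featureCounts of Subread 1.5.2 and GRCz11. Which annotation release was used, whether strand was taken into account and how multimapping reads were treated is not given in the sources used here. Overlapping, antisense and near-identical genes, mitochondrial genes with nuclear copies included, are uncertain for that reason. Each column was assigned through its name, leaving 0 unused. Symbols came from a table naming 28988 of 32057 gene IDs, and a symbol carried by several IDs is printed with its ID where needed.

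The quasi-likelihood test of edgeR 4.0.16 (R 4.3.3) was run after filterByExpr by genotype (minimum count 10, minimum total 15) and TMM scaling, with family and genotype in the model over all 18 libraries. Adjusted p-values are Benjamini-Hochberg values over all genes tested, with a threshold of 0.05. The SE is the absolute log2 fold change over the root of F, and the fold changes use a prior count of 0.125. Normalized CPM use the TMM-scaled library size. Directions within families use a pseudocount of 0.5. DESeq2 1.42.0 and limma 3.58.1 were alternatives. The test was also run on simulated counts, whose means and spread came from the libraries other than the 3 that stood apart. These held no family effect and no library that stood apart, so they do not check the fit over all 18 libraries. The BCV, edgeR's common spread between libraries, was 0.147 without the 3 and 0.313 with all. The block is family, which per the labels is a shared mating. The correlation of deviations from the genotype means between Het and WT had a median of 0.209 within families (6 pairs) and −0.072 between families (30 pairs). In families 2, 4 and 5 it was 0.378, 0.355 and 0.554, above the largest with another family. It was 0.047, 0.063 and −0.188 in families 1, 3 and 6, below the largest with another family (0.417, 0.2625 and 0.165). No 2 libraries agreed within sampling noise (lowest chi-square per degree of freedom 6.77 over 153 pairs). For genes of many reads, counting error is small beside the spread between pools, and depth does not cover that spread. Counting error is larger for genes of few reads.

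The compared libraries, the 34 gene lists (929 genes) and the tests were chosen with earlier results of these data known. List members were matched by symbol or, failing that, by the symbol without its paralog suffix (a letter or a number), which was decided on with the symbols in view. Lists are described by counts and medians with no set test. Named genes are mfn2, the 10 higher and 10 lower genes of smallest p with a symbol that is no clone name, 10 of each for Hom against WT, all members of the mitochondrial fusion and fission list and of the mitochondrially encoded subunits, and the 2 members of smallest p of each other list. Genes passing without the 3 libraries that stood apart, or without family 2, were also to be named (none did). So were genes passing without family 2 and the 3 libraries, or without families 1, 2 and 3 (mfn2 and si:ch211-194e1.7). A gene of this rule is not reported here. Other genes named, the count of 6 of 6 families and the setting without families 1 and 3 were chosen after values were seen. Sequences and coordinates were not used here. Neighbours of mfn2 come from gene order in GRCz12tu, by unique name.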

Additional observations from a re-analysis of the deposited data

Results flagged for a closer look

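Single libraries far from the rest of their genotype were looked for in the 81 genes of mfn2, the leading genes, the mitochondrial lists and the genes of Hom against WT, by the gap to the nearest library as a share of the group's range (Dixon's criterion at 95%). Of 162 groups 12 met it, and chance gives about 1 in 20. The level of mfn2 in the library labelled WT of family 2, 75.2 normalized CPM, lay below the other WT libraries. In WT, il16 was high in family 1 (10.3 normalized CPM), gdap1 was high in family 5 (87.1) and slc25a46, a mitochondrial outer membrane carrier gene, was high in family 4 (42.8). The WT library of family 6 was high in mych (13.6 normalized CPM), trib3 (15.6) and marchf5l (44.3). In Het of family 4 the sterol synthesis genes sqle (ENSDARG00000079946) and lss were low, at 5.48 and 7.17 normalized CPM. Het of family 1, which stood apart in general, was high in yme1l1 (ENSDARG00000104401; 57.8 normalized CPM) and mt-nd3 (1557). Het of family 6 was low in stoml2 (8.91 normalized CPM). No cause of these values was tested.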

How the results depend on the processing

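The count of 0 genes past the test for Het against WT was also found with DESeq2's size factors in edgeR, with no filter on low counts, with the 12 Het and WT libraries alone, without each family or library in turn (0 to 0, with 223 to 955 genes at an unadjusted p under 0.05), without the 3 libraries that stood apart and, as added after seeing the data, without families 1 and 3. It was 2 without family 2 and the 3 libraries, 1 without families 1, 2 and 3, and 14 with DESeq2, which tested 24970 genes and gave 880 at an unadjusted p under 0.05. The cause of these differences was not tested. The 14 comprise 10 higher and 4 lower genes, vtg7, ca15b, krt93, si:ch211-209m20.7 and pyy among them. For mfn2 the log2 fold change was −0.68 (edgeR adjusted p = 0.0117) without family 2 and the 3 libraries and was negative under every alternative run. Family 2 was left out because of its mfn2 levels, so that p is not independent support. With no replicate block (family left out of the model) 0 genes passed, 463 had an unadjusted p under 0.05, and mfn2 stood at −0.54. The block changed no call. The difference in mitochondrially encoded share was reversed without families 1, 2 and 3 (−0.01177 on the log2 scale). None of the 20 single genes rerun changed direction under an alternative. They were chosen by their values in these same libraries, so a kept direction is not independent support. Of them pyy passed with DESeq2, and si:ch211-194e1.7 without family 2 and the 3 libraries and without families 1, 2 and 3. The count for Hom against WT was 390 with all libraries and 1658 without the 3. Depth limits genes of few reads, such as si:ch211-209m20.7 with 2 to 12 raw counts in WT. The gene si:ch211-194e1.7 was at 0 counts in 4 of 6 WT libraries, so that no fold is given for it.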
